A study of Homo sapiens with 16 samples.

Results

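A set of 10 genes of nucleotide excision repair was followed by PRO-seq across 6 groups of LNCaP cells: DDB1, DDB2, XPC, RAD23B, XPA, ERCC1, ERCC2, ERCC3, ERCC4 and ERCC5. They were taken by symbol from the 60605 Ensembl gene identifiers of each count table, and all 10 members were found. DDB2 and XPC are textbook targets of p53 and were set against the other 8. PRO-seq is a nuclear run-on assay that maps RNA polymerases engaged on the DNA, so it reads transcription rather than stored mRNA or protein. LNCaP is an established human prostate cancer cell line that is known to keep wild-type p53. Enzalutamide is a prostate cancer drug that blocks the response to androgen. The study asked how the drug and ionizing radiation change the transcription of DNA repair genes.

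All groups were LNCaP cells of 1 line grown in serum-containing medium. In batch 1, mock-treated cells were compared with cells given 6 Gy, with 2 replicates each, and every replicate had a library labelled t1 and one labelled t2. What t1 and t2 stand for is not given in the sources used here, nor is the time after radiation or a vehicle for batch 1 in particular, and the 2 libraries of a replicate were summed. In batch 2, cells were kept for 90 min with the DMSO vehicle (group 1), with vehicle and 6 Gy (group 2), with 10 µM enzalutamide (group 3) or with 10 µM enzalutamide and 6 Gy (group 4). Radiation was given 30 min into the treatment and the cells were incubated for a further 60 min. Each group of batch 2 had 2 replicates, numbered 3 and 4. The labels do not say whether replicates came from separate cultures, so p-values measure only the spread between these samples, which may be technical. The libraries held 3438642 to 9363458 counts in batch 1, or 8022989 to 16851473 per summed replicate, and 10494563 to 19905824 in batch 2. The prostate markers FOLH1 and HOXB13 ranged from 951 to 1390 CPM and from 126 to 184 CPM per replicate. Markers of blood summed to 0.406 to 1.68 CPM, of fibroblasts to 8.09 to 12.6 CPM, of endothelium to 15.4 to 36.5 CPM and of basal epithelium to 4.36 to 8.96 CPM, with 3 genes each. Of these markers HBB was at 0, in 3 replicates, and KLK3 ranged from 5.26 to 180.0 CPM.

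Nucleotide excision repair removes bulky lesions that distort the double helix, such as those left by ultraviolet light. In the global branch, the DDB1-DDB2 complex and the XPC-RAD23B complex find the lesion. TFIIH, with its helicases ERCC3 and ERCC2, then opens the DNA, XPA checks the damage, ERCC5 cuts on one side and ERCC1 with ERCC4 on the other, and polymerases with PCNA and ligases fill the gap. p53, the transcription factor activated by DNA damage, is known to induce DDB2 and XPC, and it acts by binding a sequence of paired half-sites.

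The promoter windows of DDB2 and XPC are shown because these are the 2 members that rose after radiation. They come from RefSeq on GRCh38.p14, run from 250 bases before to 50 bases after an annotated start, and are written 5′ to 3′ on the strand of the gene. For all 10 members 15 windows were found. The first DDB2 window lies at chr11:47214724-47215023 on the plus strand, and its capitals mark a p53 full site, that is 2 perfect half-sites with 1 base between them. The second lies upstream at chr11:47214204-47214503 on the plus strand and holds no p53 half-site. The XPC window lies at chr3:14178552-14178851 on the minus strand and holds no p53 half-site.
DDB2 downstream start: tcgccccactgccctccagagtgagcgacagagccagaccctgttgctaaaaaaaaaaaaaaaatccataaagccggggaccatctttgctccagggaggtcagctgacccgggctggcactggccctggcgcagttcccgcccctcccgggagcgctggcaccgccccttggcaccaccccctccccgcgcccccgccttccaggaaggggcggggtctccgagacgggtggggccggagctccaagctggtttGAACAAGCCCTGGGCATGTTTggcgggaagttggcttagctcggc
DDB2 upstream start: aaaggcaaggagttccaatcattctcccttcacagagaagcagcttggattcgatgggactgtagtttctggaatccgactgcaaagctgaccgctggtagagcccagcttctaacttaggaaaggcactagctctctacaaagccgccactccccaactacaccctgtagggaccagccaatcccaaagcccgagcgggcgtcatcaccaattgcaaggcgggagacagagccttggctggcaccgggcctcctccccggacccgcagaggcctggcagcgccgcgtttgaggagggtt
XPC: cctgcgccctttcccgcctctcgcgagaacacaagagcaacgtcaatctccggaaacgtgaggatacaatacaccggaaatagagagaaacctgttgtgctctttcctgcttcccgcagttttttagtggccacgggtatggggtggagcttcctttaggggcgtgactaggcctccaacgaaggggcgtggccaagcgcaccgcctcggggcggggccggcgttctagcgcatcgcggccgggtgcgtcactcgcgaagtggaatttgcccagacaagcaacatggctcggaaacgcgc
The full site of DDB2, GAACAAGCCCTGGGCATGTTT, begins 5 bases after the annotated start. Among the 15 member windows it was the only one with a p53 half-site, and thus the only full site. Of all 35116 promoter windows, 6.63% held a half-site and 10 windows, or 0.0285%, held a full site with the half-sites 0 to 13 bases apart. Of the 38 windows found for the p53 reference genes described below other than DDB2 and XPC, 15.8% held a half-site and 0 a full site. Of the 10 genes with a full site 6 were tested for radiation in both batches, and 3 of them, DDB2 included, rose and 0 fell, against 2.39% of all genes called higher in that fit. DDB2 prompted this count and is no support for it. A match is a description of these letters, and nothing follows about binding where letters are missing from a window.

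After radiation DDB2 and XPC rose, and the other 8 members did not pass the test. DDB2 rose to 5.95 times its mock level in batch 1, 4.61 times its vehicle level in batch 2 and 3.87 times under enzalutamide. XPC rose to 3.89, 2.4 and 2.20 times in the same order. The other 8 genes, from DDB1 to the nucleases, had log2 fold changes from -0.24 to 0.35 in batch 1, from -0.19 to 0.21 in batch 2 with vehicle and from -0.11 to 0.26 under enzalutamide, and 0 of 8 passed edgeR's quasi-likelihood test in any of the 3 comparisons. By unadjusted edgeR p under 0.05 there was 1 of the 8 in batch 1, 0 with vehicle and 1 under enzalutamide. Of all genes 11.5%, 11% and 9.49% had such a p, in the same order. DESeq2 also called only the pair in each of the 3 comparisons. Of all genes tested, 2% were called higher after radiation in batch 1, 0.743% with vehicle and 0.625% under enzalutamide. In either direction the shares were 2.82%, 1.1% and 0.918%.

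**Figure D1:**
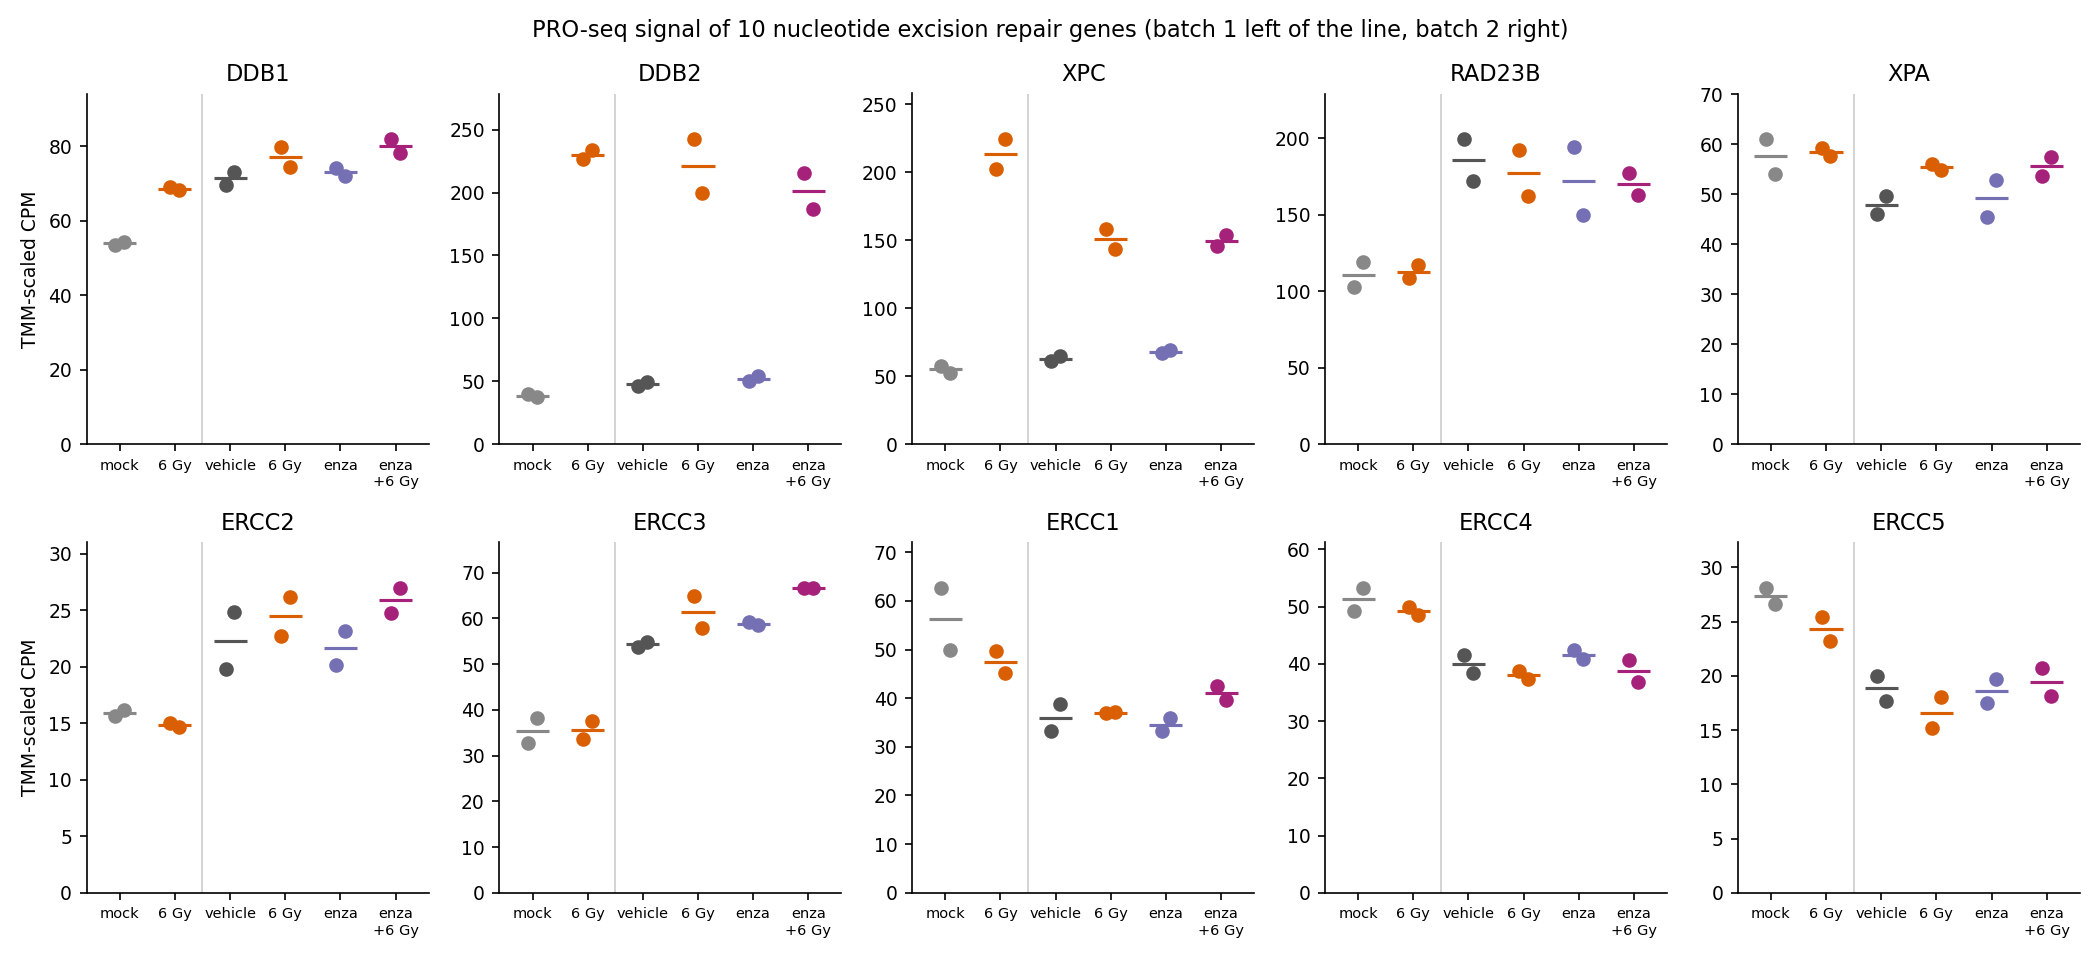
TMM-scaled CPM (y axis, linear from 0, a separate scale per gene) of the 10 members in each of the 6 groups (x axis), with 1 point per replicate and a bar at the mean of 2 replicates. DDB2 sits between 37.5 and 54.0 CPM in every replicate without radiation and between 187 and 242 CPM in every replicate with it, and XPA, ERCC1, ERCC2, ERCC4 and ERCC5 stay below 63 CPM throughout.

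DDB2 (ENSG00000134574) encodes the lesion-binding subunit of the ultraviolet-damaged DNA-binding complex. On GRCh38.p14 it spans chr11:47214454-47239217 on the plus strand. Its level in CPM, that is its counts as a share of the TMM-scaled library total, was 39.8 and 37.5 in mock and 226 and 234 after 6 Gy in batch 1. In batch 2 they were 46.5 and 49.3 CPM with vehicle and 242 and 200 CPM with vehicle and radiation. With enzalutamide DDB2 stood at 49.9 and 54.0 CPM, and with enzalutamide and radiation at 215 and 187 CPM. The irradiated replicates lay above the unirradiated ones in each batch with no overlap. These are bulk cultures, so more transcription per cell and more transcribing cells cannot be told apart. The log2 fold change was 2.57 (SE 0.125, edgeR adjusted p 2.78e-07) in batch 1, 2.20 (SE 0.113, adjusted p 2.62e-07) with vehicle and 1.95 (SE 0.113, adjusted p 8.67e-07) under enzalutamide. In one fit over both batches without drug it was 2.37 (SE 0.0891, edgeR adjusted p 7.03e-13), where 2.39% of all genes were called higher and 4.05% in either direction. With 2 replicates a side an exact permutation test of one gene cannot go below 0.333, so the calls rest on the spread shared across genes in the model.

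XPC (ENSG00000154767) encodes the DNA-binding subunit of the complex that senses helix distortion, and lies at chr3:14145147-14178601 on the minus strand. It stood at 57.4 and 52.5 CPM in mock and at 203 and 224 CPM after 6 Gy in batch 1. In batch 2 it went from 60.8 and 64.6 CPM with vehicle to 158 and 143 CPM after radiation. Under enzalutamide it went from 66.8 and 69.3 CPM to 145 and 153 CPM. As for DDB2, no irradiated replicate overlapped an unirradiated one of its batch. The log2 fold change was 1.96 (SE 0.126, edgeR adjusted p 1.73e-06) in batch 1, 1.26 (SE 0.0880, adjusted p 3.03e-06) with vehicle, 1.14 (SE 0.0883, adjusted p 1.06e-05) under enzalutamide and 1.59 (SE 0.107, adjusted p 4.02e-09) in both batches.

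**Figure D2:**
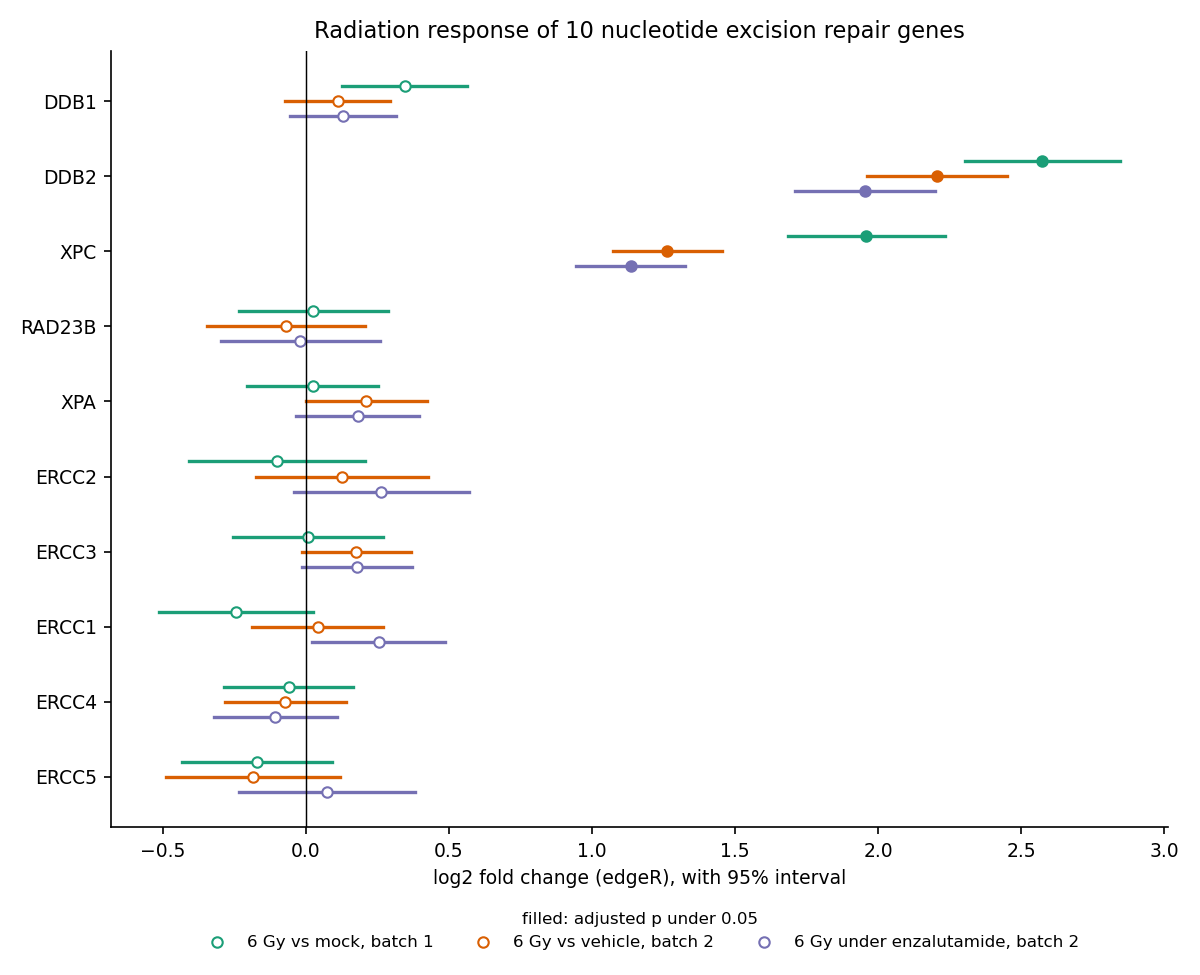
Log2 fold change after 6 Gy (x axis) of each member (y axis) in the 3 radiation comparisons, with 95% intervals, where filled points passed an edgeR adjusted p of 0.05. The 6 filled points are DDB2, from 1.95 to 2.57, and XPC, from 1.14 to 1.96, and the other 8 genes lie between -0.24 and 0.35.

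The partners of these sensors did not pass the test. DDB1, the adaptor that joins DDB2 to a ubiquitin ligase, stood at 53.6 and 54.3 CPM in mock and 68.9 and 68.2 CPM after 6 Gy in batch 1. The 2 groups did not overlap, and the log2 fold change was 0.35 (SE 0.1, edgeR adjusted p 0.119). With the replicate number as a block DDB1 was called (0.35, edgeR adjusted p 0.00155), where 9.01% of all genes were called in either direction and 4.77% higher. Without the block, the t1 libraries alone, where 17.3% of all genes were called, gave 0.47 (edgeR adjusted p 0.0280). The t2 libraries alone, where 44.7% were called, gave 0.20 (adjusted p 0.140). Crossed pairings were chosen after seeing the data. Mock t2 against irradiated t1 libraries gave 0.57 (adjusted p 0.00914, with 3.5% of all genes called). Mock t1 against irradiated t2 libraries gave 0.07 (adjusted p 0.88, with 2.02%). In batch 2 DDB1 had 69.7 and 73.2 CPM with vehicle, 79.9 and 74.5 after radiation, 74.1 and 71.9 with enzalutamide and 81.9 and 78.2 with both. The irradiated replicates lay above the others in both arms. These are log2 fold changes of 0.11 with vehicle and 0.13 under enzalutamide, neither called with or without the block. In both batches together DDB1 had 0.21 (edgeR adjusted p 0.119). Leaving out each replicate in turn gave 0.19 to 0.29, the highest without replicate 4 of the irradiated vehicle group.

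RAD23B, the stabilising partner of XPC, had 102 and 119 CPM in mock and 108 and 117 CPM after 6 Gy in batch 1. It had 199 and 172 CPM with vehicle, 192 and 162 after radiation, 194 and 150 with enzalutamide and 177 and 163 with both. Irradiated and unirradiated replicates overlapped in each comparison, and the log2 fold changes lay between -0.07 and 0.03. The 95% interval of the fit over both batches ran from -0.20 to 0.14 on the log2 scale, while that of XPC ran from 1.36 to 1.81.

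XPA, which verifies the lesion, had 61.0 and 54.1 CPM in mock and 59.3 and 57.6 CPM after 6 Gy in batch 1. In batch 2 it went from 46.0 and 49.6 CPM with vehicle to 55.9 and 54.9 CPM after radiation, and under enzalutamide from 45.5 and 52.8 CPM to 53.7 and 57.4 CPM. The batch 2 groups did not overlap, but the log2 fold changes of 0.21 and 0.18 were not called (edgeR adjusted p 0.455 and 0.600).

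The TFIIH helicases did not pass in any radiation comparison. ERCC3, the ATPase that opens the duplex, had 32.7 and 38.1 CPM in mock and 33.6 and 37.6 CPM after 6 Gy. In batch 2 it had 53.8 and 54.9 CPM with vehicle, 65.0 and 57.9 after radiation, 59.2 and 58.6 with enzalutamide and 66.6 and 66.7 with both. The irradiated replicates lay above the others in both arms of batch 2, with log2 fold changes of 0.18 (edgeR adjusted p 0.484 with vehicle and 0.566 under enzalutamide). ERCC2, the helicase that tracks along the damaged strand, had 15.7 and 16.2 CPM in mock and 15.0 and 14.7 CPM after 6 Gy. Its batch 2 values were 19.8 and 24.9 CPM with vehicle, 22.8 and 26.2 after radiation, 20.2 and 23.2 with enzalutamide and 24.8 and 27.0 with both.

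The nucleases did not pass either. ERCC1, which pairs with ERCC4, had 62.7 and 49.8 CPM in mock and 49.8 and 45.2 CPM after 6 Gy in batch 1, a log2 fold change of -0.24 (edgeR adjusted p 0.508). Leaving out each replicate gave -0.41 to -0.08. It was called lower without mock replicate 2 (adjusted p 0.0463, with 5.38% of all genes called), with the t2 libraries alone (-0.32, adjusted p 0.0466, with 44.7%) and with mock t2 against irradiated t1 libraries (-0.48, adjusted p 0.0441, with 3.5%), and not without mock replicate 1 (-0.08, adjusted p 0.945). In batch 2 it had 33.2 and 38.7 CPM with vehicle and 37.0 and 37.1 after radiation, and went from 33.2 and 35.8 CPM with enzalutamide to 42.6 and 39.7 CPM with both. That last difference, 0.25 on the log2 scale, was the one under enzalutamide with an unadjusted p under 0.05 (edgeR p 0.0343, adjusted p 0.473). ERCC4, the catalytic subunit of this nuclease, ranged from 48.5 to 53.3 CPM in batch 1 and from 36.8 to 42.3 CPM in batch 2. ERCC5, which cuts on the other side of the lesion, ranged from 23.2 to 28.1 CPM in batch 1 and from 15.2 to 20.7 CPM in batch 2. Their log2 fold changes after radiation lay between -0.19 and 0.07.

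Replicates that do not overlap say little about any single one of these 8 genes, because many genes separate with 2 replicates a side. In batch 1, 20.3% of all genes had both irradiated replicates above both mock ones and 19.7% had both below. Among the members DDB1, DDB2 and XPC lay above and ERCC1, ERCC2 and ERCC5 below. With vehicle in batch 2 the background was 21.9% above, and 5 members lay above (DDB1, DDB2, XPC, XPA and ERCC3), with 0 below where the background was 22.7%. Under enzalutamide it was 18.6% above and 19.5% below, with 7 members above, the same 5 with ERCC1 and ERCC2, and ERCC4 below. In both arms of batch 2 the share of members above, DDB2 and XPC included, was larger than that of all genes. That excess was not tested.

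Per kilobase of RefSeq gene span, the order of the members changed with radiation as DDB2 and XPC moved to the top. In mock, RAD23B was highest at 2.26 CPM per kb. XPC (1.64), DDB1 (1.6), ERCC4 (1.59) and DDB2 (1.56) followed, each overlapping the next, with ERCC2 last at 0.768 CPM per kb. After 6 Gy in batch 1 DDB2 was first at 9.28 CPM per kb and XPC second at 6.38, then RAD23B at 2.30, and neighbours in that order did not overlap. With vehicle in batch 2 the order was RAD23B (3.8), DDB1 (2.12), DDB2 (1.93), XPC (1.87), ERCC3 (1.47), ERCC4 (1.24), XPA (1.11), ERCC2 (1.08), ERCC1 (0.813) and ERCC5 (0.629), in CPM per kb. Of these neighbours DDB2 and XPC overlapped, as did XPA and ERCC2. After radiation in batch 2 DDB2 led at 8.93 CPM per kb, followed by XPC at 4.50 and RAD23B at 3.62, and with enzalutamide and radiation the top 3 were the same at 8.12, 4.47 and 3.48. The span is that of the annotation, and whether the counts cover exons or whole genes is not given in the sources used here.

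Against the p53 targets at large, DDB2 stood near the top and XPC in the middle. The reference list of 35 p53 targets, DDB2 and XPC included, was chosen with earlier results of these data known. It had 31 called higher in batch 1, 30 with vehicle, 30 under enzalutamide and 31 in both batches. Of all genes 2%, 0.743%, 0.625% and 2.39% were called higher in the same order. Without DDB2 and XPC the counts were 29, 28, 28 and 29 of 33. The medians of the 35 were 1.8, 1.36, 1.32 and 1.56 on the log2 scale. The median of all genes in these fits lay between -0.02 and -0.0021. DDB2 ranked 7th, 6th, 8th and 7th of the 35 by fold change in these 4 comparisons, and XPC 14th, 21st, 22nd and 17th. In the fit over both batches CDKN1A, the cell cycle inhibitor p21, had a log2 fold change of 3.32, FDXR, a mitochondrial reductase, 2.95, BTG2, an antiproliferative gene, 2.62 and MDM2, the ligase that degrades p53, 2.59. DDB2 and XPC were among the members of this list by their known role, so their rank describes them within it and is no independent evidence.

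**Figure D3:**
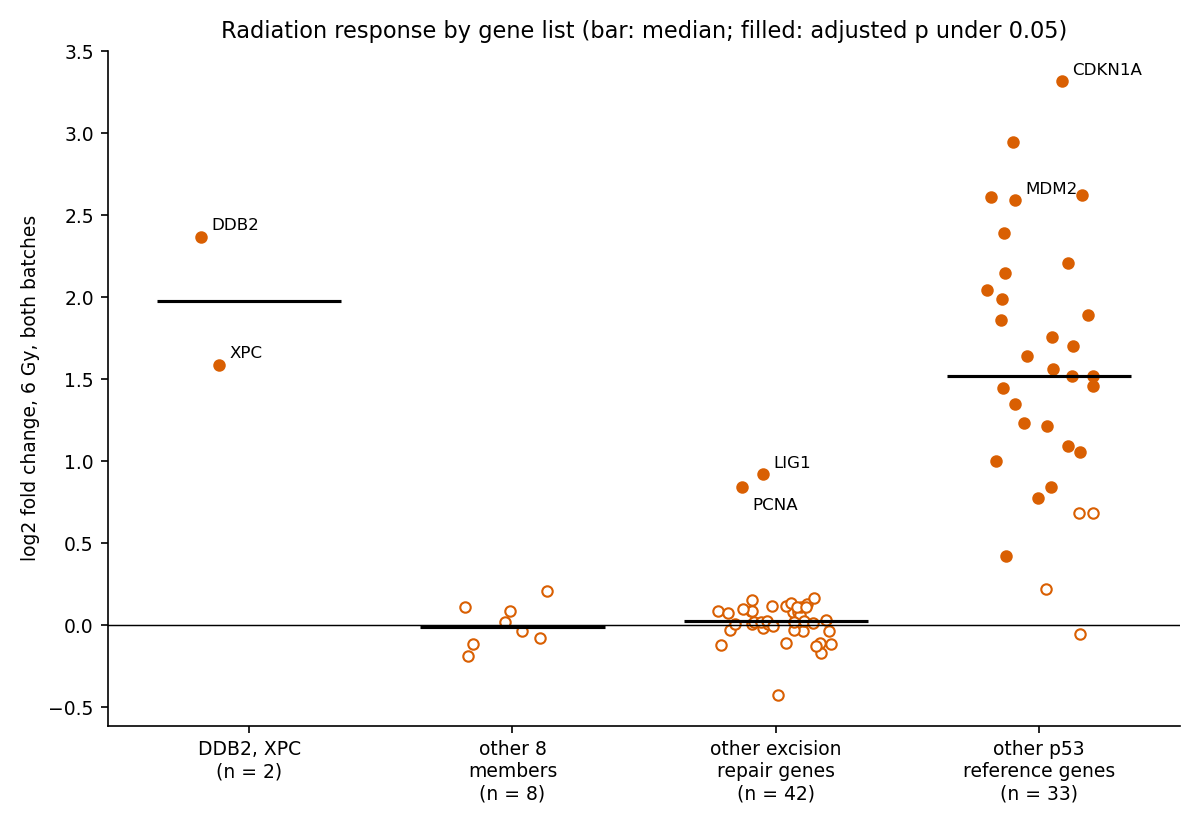
Log2 fold change after 6 Gy in both batches (y axis) for DDB2 and XPC, the other 8 members, 42 other excision repair genes and 33 other p53 reference genes (x axis, points spread sideways for visibility), with a bar at each median and filled points for an edgeR adjusted p under 0.05. The other 8 members and most other excision repair genes lie near 0, while LIG1 (0.92) and PCNA (0.84) stand apart from the rest of the repair genes.

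Most of the rest of the repair pathway did not pass either. Of 44 further nucleotide excision repair genes 42 were tested, and in each radiation comparison 2 of the 42 were called higher and 0 lower, against 2% of all genes called higher in batch 1, 0.743% with vehicle, 0.625% under enzalutamide and 2.39% in both batches. Both were gap-filling genes: PCNA, the polymerase clamp, and LIG1, a DNA ligase that also serves replication. LIG1 had log2 fold changes of 0.96 in batch 1, 0.90 with vehicle, 0.83 under enzalutamide and 0.92 in both batches (edgeR adjusted p 1.84e-08 in the last). It went from 42.0 and 44.6 CPM with vehicle to 82.8 and 79.3 CPM after radiation. PCNA had 0.84, 0.86, 0.80 and 0.84 in the same order (edgeR adjusted p 9.76e-06 in the last), with 186 and 123 CPM in mock and 277 and 277 CPM after 6 Gy in batch 1. By step, over both batches, 0 of 5 further recognition genes were called (median -0.04), 0 of 8 tested transcription-coupled genes (median 0.08), 0 of 8 tested TFIIH genes (median 0.04), 0 of 3 verification genes (median 0.03) and 2 of 18 gap-filling genes (median 0.06). STK19, of the transcription-coupled genes, and GTF2H4, of TFIIH, had 0 counts in every replicate and were not tested. CDK7, of the tested TFIIH genes, had only 5 to 31 counts per replicate. At an unadjusted p under 0.05 there were, of the 40 tested genes other than PCNA and LIG1, 0 in batch 1, 4 with vehicle, 2 under enzalutamide and 1 in both batches, against 11.5%, 11%, 9.49% and 16.1% of all genes. A positive log2 fold change was seen in 19 of the 40 in batch 1, 32 with vehicle, 29 under enzalutamide and 27 in both batches. The share of positive values over all genes was not counted.

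The genes whose pattern over the samples was most like that of DDB2 or XPC were looked up across all groups. Over 12 replicates, on log2(CPM + 0.5) centred within each batch, the 5 genes most like DDB2 of 17426 with a mean of at least 50 counts were TNFRSF10A (Pearson's r 0.997), BTG2, NINJ1, GAS6-AS1 and MIR34AHG (each 0.996). The 5 most like XPC were MDM2 (0.997), AEN (0.996), RPS27L, CCNG1 and PPM1D (each 0.995). DDB2 and XPC had an r of 0.988 with each other. XPC ranked 38th by likeness to DDB2, and DDB2 39th by likeness to XPC. Of the other members DDB1 had an r of 0.89 with DDB2 and 0.927 with XPC, and XPA 0.641 and 0.587. RAD23B had -0.05 with both, and ERCC4, the lowest, -0.58 with both. The replicates share batch, treatment and library scaling, and these values are descriptive.

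Enzalutamide moved none of the 10 members past the threshold. Averaged over radiation the log2 fold changes ran from -0.08 (RAD23B) to 0.12 (ERCC3), with 0 of 10 called by edgeR, 0 at an unadjusted p under 0.05, and 0 by DESeq2. Of all genes, edgeR called 0.0628% in this average, each of them lower, and DESeq2 called 0.107%. An unadjusted edgeR p under 0.05 was seen for 6.21% of all genes. Without radiation the range was -0.11 to 0.12, and with radiation -0.14 to 0.23. Again 0 of 10 were called by edgeR or DESeq2, and 0 had an unadjusted p under 0.05. Of all genes edgeR called 0.0105% in each, and DESeq2 0.02% without and 0.0109% with radiation. At an unadjusted edgeR p under 0.05 the shares were 2.56% and 3.0%, in the same order. In all 3 comparisons the 95% interval of each of the 10 lay within a 1.5-fold change either way, with a median half-width of 0.149 log2 units for the average, 0.222 without radiation and 0.223 with it.

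**Figure D4:**
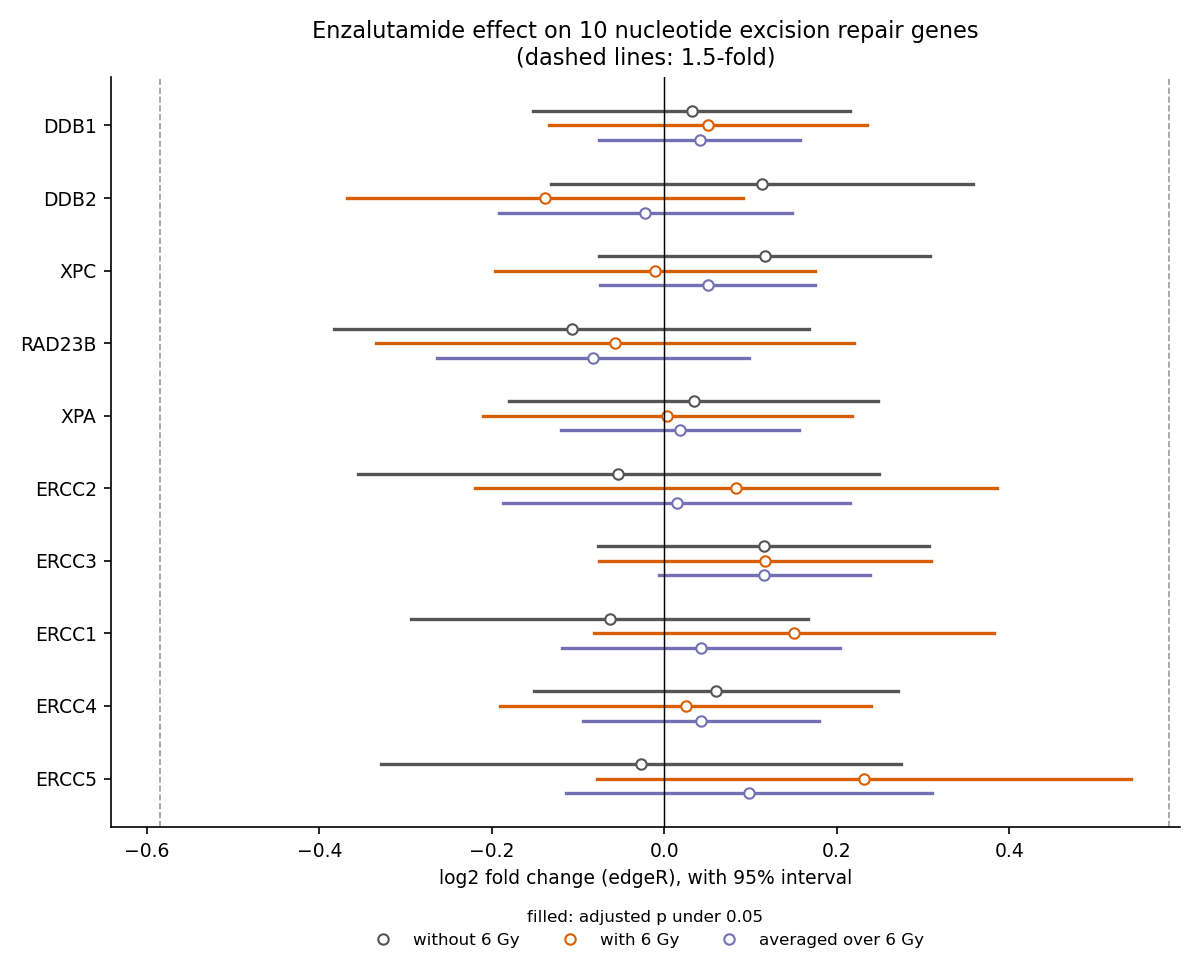
Log2 fold change with enzalutamide (x axis) of each member (y axis) without radiation, with radiation and averaged over both, with 95% intervals and dashed lines at 1.5-fold. The 30 intervals lie inside the dashed lines, and each includes 0.

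The differences of DDB2 and XPC with the drug were small. Without radiation both enzalutamide replicates lay above both vehicle replicates for DDB2 (log2 fold change 0.11, SE 0.113) and for XPC (0.12, SE 0.0887), as also for ERCC3. Both above was the case for 14% of all genes in that comparison, and 0 members lay below, where 12.3% of all genes did. With radiation DDB2 had -0.14 (SE 0.106) and XPC -0.01 (SE 0.0858), and the groups overlapped. The signs in that comparison were not stable: without replicate 3 of the irradiated vehicle group DDB2 had 0.00694 and XPC 0.0610. The members above in that comparison were ERCC1, ERCC3 and ERCC5, where 16.4% of all genes were, and 0 lay below, against 15.5%. With both arms of the drug set against both without it, 0 members separated, against 1.34% of all genes above and 1.24% below. Of 8 androgen-responsive genes measured as a reference for the drug 3 were called lower in the average, against 0.0628% of all genes. In that average 8 of the 8 had a negative log2 fold change, with a median of -0.62. An unadjusted edgeR p under 0.05 was seen for 6 of them, against 6.21% of all genes. TMPRSS2 was among those called (-0.58, edgeR adjusted p 0.00123), while KLK3 had -0.66 (adjusted p 0.690) and FKBP5 -0.26 (adjusted p 0.220).

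The response of the pair to radiation was not shown to differ with the drug. The interaction term was -0.25 (95% interval -0.59 to 0.08, edgeR adjusted p 1) for DDB2 and -0.13 (-0.39 to 0.14, adjusted p 1) for XPC. For DDB2 the lower bound corresponds to a response 0.665 times that in vehicle cells, so a loss of that size lies within the interval. For the other 8 members it ran from -0.04 to 0.26. Of all genes 0% were called for the interaction, and of the 10 members 0 were called by edgeR and 0 by DESeq2. An unadjusted edgeR p under 0.05 was seen for 0 of the 10 members, against 1.2% of all genes.

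The fold change of XPC was larger in batch 1 than in batch 2, a difference that passed with the replicate block and not without it. The difference of the log2 fold changes, batch 1 minus batch 2 with vehicle, was 0.67 for XPC (SE 0.151, edgeR unadjusted p 0.000334, adjusted p 0.184). With the replicate block it was called (0.67, edgeR adjusted p 0.0149), where 0.329% of all genes were, against 0.106% without the block. For DDB2 the difference was 0.35 (SE 0.162, unadjusted p 0.0472, adjusted p 0.875). With the t2 libraries alone for batch 1 both were called (XPC 0.79, adjusted p 0.00149, and DDB2 0.64, adjusted p 0.00999), where 20.3% of all genes were, and with the t1 libraries alone neither was (0.64 and 0.12, with 1.66% of all genes called). In the p53 reference list 32 of 35 genes had a positive difference, 1 was called, and the median was 0.43, against -0.01 over all genes. The batches differ in the labelled vehicle, in depth and in library layout at once. They may also differ in the time after radiation, which is not given for batch 1. These cannot be told apart.

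The summed batch 1 values of XPA and RAD23B hide opposite movements of the t1 and t2 libraries. In the t1 libraries XPA had 55.2 and 47.8 CPM in mock and 69.4 and 75.5 CPM after 6 Gy (log2 fold change 0.52, edgeR adjusted p 0.0205). In the t2 libraries it had 63.5 and 65.1 CPM in mock and 41.8 and 42.8 CPM after 6 Gy (-0.60, adjusted p 0.000507). The groups did not overlap in either, and the directions were opposite. RAD23B moved the other way. Its t1 libraries had 113 and 133 CPM in mock and 97.1 and 88.1 CPM after 6 Gy (-0.39, edgeR adjusted p 0.0865), and its t2 libraries 92.7 and 102 CPM in mock and 125 and 141 CPM after 6 Gy (0.46, adjusted p 0.00579). The mock t2 libraries were paired with the irradiated t1 libraries, and mock t1 with irradiated t2, after these values were seen. XPA then had 0.18 and -0.28, and RAD23B -0.07 and 0.11, none of them called. Over all genes 17.3% passed with t1 libraries alone and 44.7% with t2 alone, against 2.82% summed and 3.50% and 2.02% in the 2 crossed pairings. What the t labels carry was not tested.

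**Figure D5:**
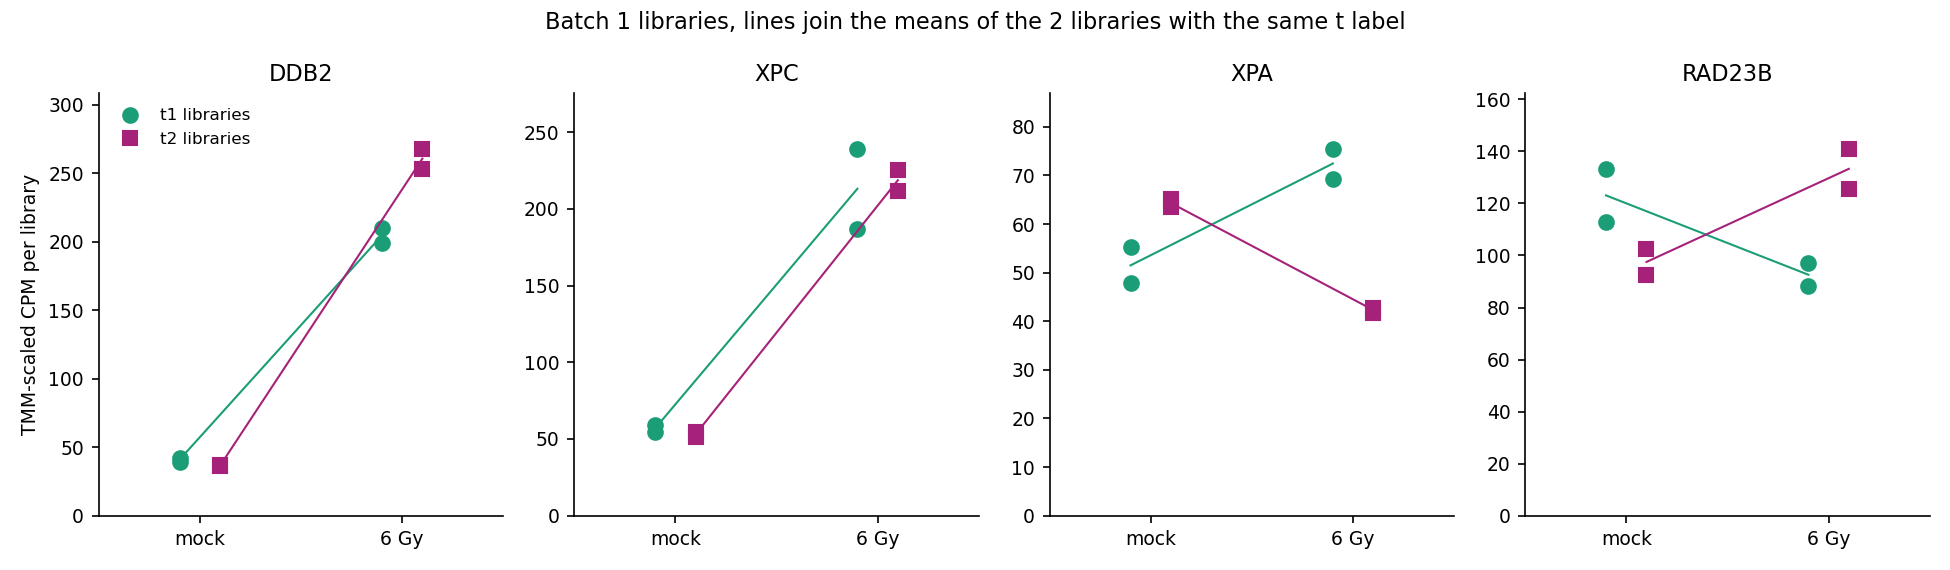
TMM-scaled CPM per batch 1 library (y axis, linear from 0) in mock and after 6 Gy (x axis) for DDB2, XPC, XPA and RAD23B, where circles are t1 libraries, squares are t2 libraries and lines join the means of the 2 libraries with the same t label. The lines of DDB2 and XPC rise together, and those of XPA and RAD23B cross.

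DDB2 and XPC rose in either kind of library. DDB2 had 42.4 and 39.5 CPM in mock t1 and 199 and 210 CPM in irradiated t1 libraries, and 37.1 and 35.9 against 268 and 253 CPM in t2 libraries. XPC had 59.1 and 54.8 against 187 and 239 CPM in t1 libraries, and 54.8 and 51.3 against 225 and 212 CPM in t2 libraries. The log2 fold change of DDB2 was 2.35 with t1 libraries, 2.84 with t2 libraries and 2.49 and 2.67 in the crossed pairings, and that of XPC 1.93, 2.04, 2.01 and 1.94, all of them called.

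The genes beside the members were examined because the counts may mix overlapping genes. In RefSeq order 27 genes overlap or flank a member, 22 matched an identifier in the tables and 17 were tested. ACP2, a lysosomal acid phosphatase whose span lies 0.085 kb past that of DDB2, rose by 0.54 on the log2 scale in batch 1 (edgeR adjusted p 0.0336), 0.51 under enzalutamide (adjusted p 0.0375) and 0.45 in both batches (adjusted p 0.00205), and had 0.39 with vehicle (adjusted p 0.139, or 0.0105 with the replicate block). The batch 1 call was lost with DESeq2 (adjusted p 0.117) and without mock replicate 2 or irradiated replicate 2, and the call under enzalutamide with total counts (adjusted p 0.0505) and without any one of 6 batch 2 replicates. Whether reads past the end of DDB2 enter the ACP2 count was not tested.

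The neighbours of XPC were not called. XPC-AS1, an antisense RNA that overlaps XPC, had a mean of 4.57 CPM in mock and 4.27 CPM after 6 Gy in batch 1 (log2 fold change -0.11, edgeR adjusted p 0.932), and LSM3 and TMEM43 on either side did not pass in any comparison. After radiation TMEM43 had 0.14 in batch 1, 0.22 with vehicle, 0.36 under enzalutamide (edgeR adjusted p 0.159) and 0.17 in both batches. LSM3 had 0.06, 0.04, 0.02 and 0.04 in the same order. VWCE, 4.135 kb from DDB1, rose in batch 1 (0.94, edgeR adjusted p 0.00278) and in both batches (0.53, adjusted p 0.0251), but not in batch 2 alone, where it had 0.20 with vehicle (adjusted p 0.643) and 0.10 under enzalutamide (adjusted p 0.876). FOSB, 16.449 kb from ERCC1, fell in batch 1 (-0.70, edgeR adjusted p 0.0436). It was not called with vehicle (-0.25, adjusted p 0.796), under enzalutamide (-0.30, adjusted p 0.830) or in both batches (-0.52, adjusted p 0.121). XPA overlaps NCBP1, ERCC2 overlaps KLC3, ERCC1 overlaps POLR1G and MIR6088, ERCC4 overlaps a lncRNA and a pseudogene, and ERCC5 overlaps the readthrough gene BIVM-ERCC5. Since the use of strand and the handling of shared reads are not given in the sources used here, the levels of these members are uncertain, XPC with XPC-AS1 included.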

How the data were processed

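The authors deposited 1 table of unnormalized counts for each of 2 batches, with a row per Ensembl gene, as judged from their whole numbers. The submitters' processing notes name hg38, cutadapt 1.8.1, Bowtie2 2.4.4 and SAMtools 1.9, with no role or order. The counter, annotation release, strand use and duplicate removal are not given in the sources used here. Identifiers were matched to symbols by a table of gene names, and positions come from RefSeq GRCh38.p14.

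In batch 1 the t1 and t2 counts of a replicate were summed. Counts were tested with edgeR 4.0.16 in R 4.3.3 (filterByExpr, TMM factors, glmQLFit, glmQLFTest, two-sided, with Benjamini-Hochberg adjustment over all genes tested and a threshold of 0.05). DESeq2 1.42.0, other scalings, no filter, a block for the replicate number, single t libraries and leaving out each replicate were alternatives. The SE is the log2 fold change divided by the root of F, and 95% intervals use the t distribution of the model. The steps were tested on simulated data. Same-numbered replicates carry the same number in the labels. Their deviations correlated across 18686 genes (0.343 in batch 1, 0.254 to 0.457 over the 6 pairs of groups in batch 2). The main fits nevertheless held no term for the replicate number, so they ignore any such pairing. The block was run only as an alternative. The members and gene lists were chosen with earlier results of these data known. Named genes are the 10 members, other excision repair genes past the threshold, fixed reference genes, the nearest or overlapping neighbours, and the 5 genes most like DDB2 and XPC. Part of the marker and promoter results is not reported here.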

Additional observations from a re-analysis of the deposited data

Results flagged for a closer look

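Of 20 tests for a library far from the other 3 of its batch 1 group (10 members, 2 groups), 2 stood apart. Chance gives about 1 in 20 for independent libraries. Each group here holds t1 and t2 libraries of 2 replicates, so that rate may not hold. ERCC4 had 42.4 CPM in the t1 library of mock replicate 1, with 52.9 to 54.6 CPM in the other 3 mock libraries (a gap of 0.862 of the range). ERCC3 had 30.7 CPM in the t1 library of irradiated replicate 1, with 37.4 to 38.0 CPM in the others (gap of 0.909 of the range). Neither gene was called in batch 1.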

How the results depend on the processing

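DDB2 and XPC passed for radiation in each alternative run, from 2.35 to 2.84 and 1.88 to 2.04 in batch 1, 2.06 to 2.33 and 1.19 to 1.33 with vehicle, 1.87 to 2.05 and 1.10 to 1.20 under enzalutamide, and 2.25 to 2.50 and 1.49 to 1.73 in both batches (log2). With the replicate block the members called for radiation in batch 1 were 3, with DDB1 added (0.345, edgeR adjusted p 0.00155), and those called for the difference between batches were 1 (XPC, 0.674) in place of 0; the block changed no other member's call. With t1 libraries alone 4 of 10 members were called in batch 1 (17.3% of all genes), with t2 alone 5 (44.7%), and with mock t2 against irradiated t1 (chosen after seeing the data) 4 (3.5%), in place of 2. For the batch difference t2 alone gave 4 (20.3% of all genes). PCNA in batch 1 was lost with mock t1 against irradiated t2 (0.488, adjusted p 0.522). The cause was not tested. LIG1 passed in each radiation alternative.

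The other values that changed sign were small or came from the t settings. In batch 1 these were RAD23B with t1 (-0.388) and with mock t2 against irradiated t1 (-0.0668), XPA with t2 (-0.598) and with mock t1 against irradiated t2 (-0.279), ERCC3 (-0.104 with t1, -0.00204 with mock t1 against irradiated t2), ERCC1 (0.0331 in the latter) and ERCC4 (0.136 with t1). In both batches they were RAD23B without a filter (0.0135), with DESeq2 (0.00835), with t2 (0.179) and with mock t1 against irradiated t2 (0.0302), XPA with t2 (-0.171), ERCC2 (-0.00118) and ERCC4 (0.00197) with t1, and ERCC1 with mock t1 against irradiated t2 (0.0515). RAD23B under enzalutamide gave 0.000138 with DESeq2, and XPC for the drug with radiation 0.00941 with total counts. Leaving out each replicate gave ranges across 0 in batch 1 for RAD23B (-0.0796 to 0.138), XPA (-0.0629 to 0.108) and ERCC3 (-0.0988 to 0.124), with vehicle for RAD23B (-0.195 to 0.0453), ERCC2 (-0.0249 to 0.307) and ERCC1 (-0.0649 to 0.161), under enzalutamide for RAD23B (-0.190 to 0.190) and ERCC5 (-0.0131 to 0.170), for the drug with radiation for DDB2 (-0.275 to 0.00694) and XPC (-0.0830 to 0.0610), for the averaged drug for DDB2 (-0.0657 to 0.0661), XPA (-0.0257 to 0.0579), ERCC2 (-0.0399 to 0.0994) and ERCC1 (-0.00468 to 0.112), and in both batches for RAD23B (-0.0780 to 0.0611) and ERCC2 (-0.0481 to 0.0776). Where a lone replicate remained it was assumed to vary like the other groups. The counts of all genes called, 731 in batch 1, 314 with vehicle and 263 under enzalutamide, became 2332, 1315 and 951 with the block and 1157, 624 and 556 without a filter. For the drug average 18 became 272, 230 and, with DESeq2, 59. With 2 replicates a group, a difference under about 0.22 log2 units in 1 comparison of batch 2 was within the typical interval.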
